A study of Mus musculus with 39 samples.

Results

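In early meiotic prophase spermatocytes, DNA breaks are made and chromosomes begin to pair. Cells called early prophase cells below were selected on transcripts of that stage in droplet single-cell RNA-seq of dissociated whole mouse testis, and not all of them fitted the name. A cell was chosen by having at least 3000 unique molecular identifiers (UMIs, each standing for 1 captured RNA molecule), at most 20% of them mitochondrial, a UMI of at least 3 of the 5 genes Prdm9, Dmc1, Meiob, Tex15 and Rad51ap2, and fewer than 2 UMIs of Stra8. The rule found 629 of the 19625 cells that passed the depth and mitochondrial limits. In the control library there were 463 such cells among 11181, and in the conditional knockout (cKO) library 166 among 8444.

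The series compared male germ cells with and without Kdm6a. Kdm6a is X-linked and encodes an enzyme that removes methyl groups from lysine 27 of histone H3. The control library came from Kdm6a fl/y; Cre- males and the cKO library from Kdm6a fl/y; Ddx4-Cre+ males, so both genotypes carried the floxed allele and only the second had Cre recombinase, under the control of Ddx4, a gene of germ cells. Each genotype was 1 library, the sources used here state neither how many animals it came from nor their age, and no test between genotypes was possible. All intervals below are 95% exact intervals that cover counting error only. Open chromatin (ATAC-seq) and H3K27me3 (CUT&Tag) were mapped in cKIT+ spermatogonia from such males. Each had 2 libraries of control and 3 of cKO, and IgG had 1.

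In early prophase, programmed double-strand breaks are placed at sites that the histone methyltransferase PRDM9 marks. The recombinase DMC1 then drives strand exchange, together with partners such as the HOP2-MND1 pair, while MEIOB protects single-stranded DNA. At the same time, axial proteins and cohesins fold each chromosome into loops, and the synaptonemal complex joins the homologues. Once the autosomes are paired, the X and Y chromosomes are packed into the sex body and their genes are silenced.

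The control library held 132573435 UMIs in passing cells and the cKO library 98721829. Of these, 4368619 and 1540824 lay in the early prophase cells. Their median depth was 5388 UMIs in control and 6068 in cKO, and the median number of genes found was 2759 and 2764. No barcode of an early prophase cell occurred in both libraries, although 30 barcodes of passing cells did.

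The label was checked against genes that the rule did not use. The 11 genes of the synaptonemal complex and chromosome axis held a median of 96.4 per 10000 UMIs in control early prophase cells and 103 in cKO. Other passing cells held medians of 14.3 and 13.7 per 10000. The neighbouring cells positive for Stra8, which met the rule on the 5 genes but had at least 2 UMIs of Stra8, lay between, at 57.9 and 55.9. Sycp1, which encodes the transverse filament, had a UMI in 97.6% of the early prophase cells of both libraries after every cell was thinned to 3000 UMIs. Among later spermatocytes, defined by a UMI of at least 3 of 5 later genes and fewer than 3 early ones, the same share was 38.0% in control and 35.1% in cKO. That name stands for the rule. The upper 10% of this class began at 2281 (control) and 2377 (cKO) per 10000 UMIs of elongating spermatid genes, so it also took in cells rich in spermatid transcripts. Its axis medians, 15.0 and 14.7, were near those of other passing cells.

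Part of the chosen cells went against the name. Those with an X-linked share of UMIs under 1%, 194 in control and 105 in cKO, had Hspa2, a chaperone gene of the later pachytene stage, at 1570 CPM and 1433 CPM (the gene's UMIs over all UMIs of these cells, on the usual CPM scale). The chosen cells of 1% and over had it at 499 and 466 CPM. Piwil1, a piRNA-binding gene of pachytene, was at 362 and 372 CPM in the first cells and at 53.1 and 56.95 CPM in the second. Neither gene was used by the rule, and both were picked after their values were seen. Hspa2 and Piwil1 are given as summed CPM, in which deep cells weigh more, and the axis genes as medians over cells. These unlike measures are not set against each other. The axis medians were 100.5 per 10000 UMIs in control and 107.8 in cKO under 1%, against 91.9 and 85.6 at 1% and over. For the cells under 1% the name therefore stands for the rule, and no stage is claimed.

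Markers of other cells were examined next. The 10 genes of spermatogonia, where a UMI of at least 3 defines the spermatogonia used for comparison, had a median of 0 UMIs per cell in both libraries, as did the Leydig, macrophage, myoid and endothelial lists. Pecam1, an endothelial gene, was at 0 in both libraries, and the macrophage genes Csf1r and Cd74 were at 0 in cKO. The 7 Sertoli genes summed to 922 UMIs in control and 183 in cKO, all 7 with at least a UMI. Their median was 0.615 per 10000 UMIs in control early prophase cells and 0 in other control cells, and the upper 10% of cells began at 5.87 and 3.09. In cKO both medians were 0, and the upper 10% began at 5.07 and 2.74. Elongating spermatid genes, such as those of the protamines, had UMIs in all gates, and their median was 134 per 10000 UMIs in control early prophase cells, above that of the axis genes there, and 77.8 in cKO. In barcodes with 10 to 100 UMIs they made up 310 and 288 per 10000. Whether such barcodes show the free RNA in these cells is unsure, since the macrophage genes made up 7.98 and 9.67 per 10000 in them and 0.0687 and 0.0584 in the early prophase cells. The alternative in which this low-UMI profile is subtracted took off as much as would account for the median of the elongating genes, 43.27% of the control and 27.01% of the cKO UMIs. The 2 libraries were thus treated unequally in it, and calls lost in it are not read as lost to free RNA. The part of the elongating genes in the values below was not tested.

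The rule also took in some very deep cells. There were 45 early prophase cells with at least 20000 UMIs in control and 9 in cKO, and these held 34.3% and 25.3% of the early prophase UMIs. Their axis genes had medians of 32.6 and 28.9 per 10000 UMIs, against 18.9 and 16.9 in the cells of that depth outside the rule. In every band of depth under 20000 UMIs the median was between 90.5 and 109 per 10000. The deepest cells thus met the rule with fewer axis transcripts per UMI.

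**Figure D1:**
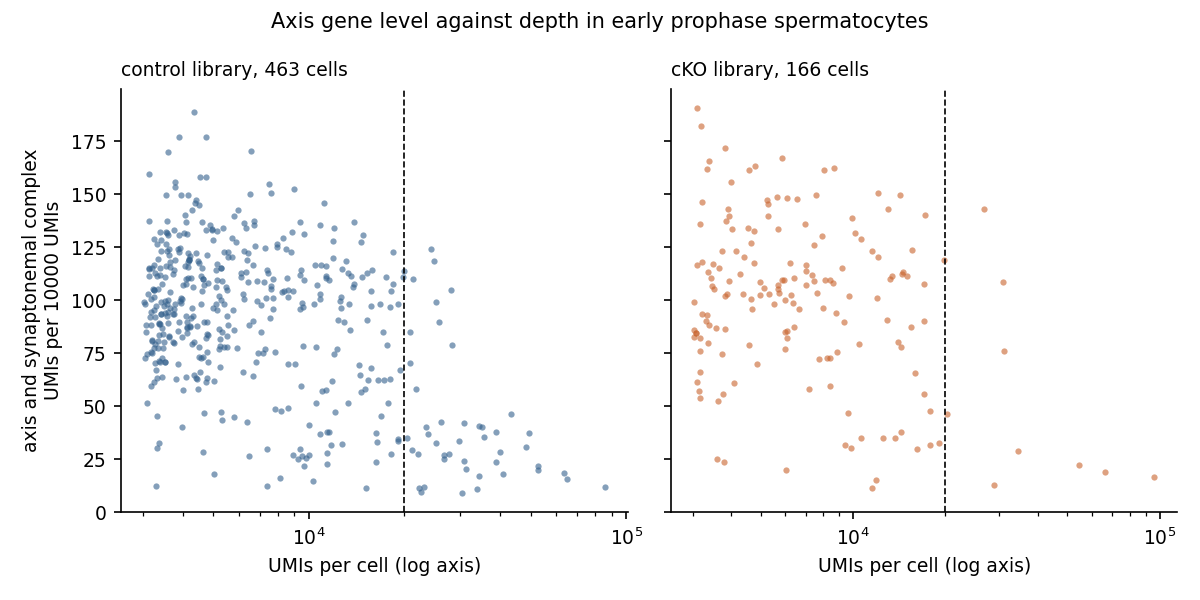
UMIs of the 11 axis and synaptonemal complex genes per 10000 UMIs (vertical axis) against UMIs per cell (horizontal log axis) for the 463 control and 166 cKO early prophase cells, 1 point a cell, with a dashed line at 20000 UMIs. Most points right of the line lie low, with medians of 32.6 in control and 28.9 in cKO.

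At the limit on gene number, cells just inside and just outside the rule differed in the same measure. Cells with 3 of the 5 genes had axis medians of 93.2 per 10000 UMIs in control and 102 in cKO, while cells with 2 of them had 24.2 and 25.7. At the depth limit they differed little. The 71 control and 27 cKO cells just above it had medians of 91.9 and 92.9. The 46 control and 34 cKO cells just under it, with 2500 UMIs or more, had 90.9 and 102. At the limit on Stra8, the retinoic acid target that starts meiosis, the libraries stood in opposite order. The 48 control cells with 1 UMI had a median of 92.2 and the 20 with 2 UMIs 69.0, while the 6 cKO cells with 1 UMI had 43.2 and the 5 with 2 UMIs 86.9. No test was made on these values, since the rule set them apart.

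The 5 genes that chose the cells are given as a description only. Meiob was at 198 CPM in control and 212 in cKO, and Rad51ap2 was at 198.5 and 224 CPM. Dmc1 was at 111 and 104 CPM. Prdm9 was at 41.2 CPM in control and 23.4 in cKO, and Tex15, needed for break repair and transposon silencing, at 397 and 213.5 CPM. The latter pair was thus lower in the cKO library, while the other genes differed less.

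Promoter sequence is shown for 8 early prophase genes, because the chromatin regions of the series bear on the same window. The stretches are the 150 bases before the RefSeq transcript start, on build GRCm38.p6 (mm10), read 5′ to 3′ on the gene's strand. Capitals mark the motifs searched on both strands: CACGTG, the E-box bound by MGA and MAX, GCGGGAA, a site of E2F factors, AACTGTC and AACGGTC, forms bound by A-MYB, and CCTCAG, the core of the element bound by STRA8. The first 3 sequences belong to genes of the selection rule and the other 5 to axis and synaptonemal complex genes that hold an E-box in this stretch.
Prdm9: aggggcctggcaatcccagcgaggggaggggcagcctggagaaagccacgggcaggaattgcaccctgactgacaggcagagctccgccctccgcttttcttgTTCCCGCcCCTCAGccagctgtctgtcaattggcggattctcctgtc
Rad51ap2: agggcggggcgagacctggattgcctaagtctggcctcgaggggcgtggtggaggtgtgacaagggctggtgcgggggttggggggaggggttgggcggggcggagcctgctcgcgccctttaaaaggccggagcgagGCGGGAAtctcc
Dmc1: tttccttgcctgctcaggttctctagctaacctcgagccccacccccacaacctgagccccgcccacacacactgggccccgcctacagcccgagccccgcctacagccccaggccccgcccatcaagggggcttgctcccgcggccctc
Sycp3: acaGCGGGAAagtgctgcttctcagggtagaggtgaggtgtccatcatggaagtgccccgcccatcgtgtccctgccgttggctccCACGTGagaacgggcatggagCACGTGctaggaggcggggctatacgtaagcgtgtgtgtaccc
Sycp1: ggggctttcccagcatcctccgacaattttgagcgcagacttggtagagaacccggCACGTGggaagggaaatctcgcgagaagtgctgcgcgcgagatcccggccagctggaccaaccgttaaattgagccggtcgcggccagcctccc
Tex12: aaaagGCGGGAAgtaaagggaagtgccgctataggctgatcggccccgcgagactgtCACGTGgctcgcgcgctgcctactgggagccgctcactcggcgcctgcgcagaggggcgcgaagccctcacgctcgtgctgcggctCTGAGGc
Hormad1: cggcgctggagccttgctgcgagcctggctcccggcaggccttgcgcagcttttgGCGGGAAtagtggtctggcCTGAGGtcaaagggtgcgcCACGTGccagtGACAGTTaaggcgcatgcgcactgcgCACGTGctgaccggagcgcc
Syce2: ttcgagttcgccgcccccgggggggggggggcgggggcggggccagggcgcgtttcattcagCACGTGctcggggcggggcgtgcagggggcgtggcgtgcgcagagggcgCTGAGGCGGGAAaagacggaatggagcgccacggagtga
Prdm9 lies on chr17:15564355-15564504 (minus strand), Rad51ap2 on chr12:11455905-11456054 (plus) and Dmc1 on chr15:79605110-79605259 (minus). Sycp3 lies on chr10:88459437-88459586 (plus), Sycp1 on chr3:102936101-102936250 (minus) and Tex12 on chr9:50561269-50561418 (minus). Hormad1 lies on chr3:95559527-95559676 (plus) and Syce2 on chr8:84872108-84872257 (plus). Prdm9, Hormad1 and Syce2 have a second start in the table that is not shown, and Meiob and Tex15 are not in the table. In Syce2, the CCTCAG element on the minus strand and the GCGGGAA element share a base.

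Over the whole window of 250 bases before to 50 after the start, 6 of the 11 axis and synaptonemal complex genes held CACGTG (54.5%). The piRNA list had 6 of 10 (60.0%). Others had fewer, with 2 of 9 break formation genes (22.2%), 2 of 10 crossover genes, 1 of 11 strand exchange genes (9.09%), 1 of 13 sex-body genes (7.69%) and 0 of 5 telomere genes. Over the recombination, axis, cohesin and telomere lists together, CACGTG stood in 11 of 50 promoters. The motif stood in 12.2% of the 7480 genes tested in the early prophase cells that had a promoter in the table, and in 8.09% of all 27025 genes in it. Of these 6 genes, Hormad1, Sycp3, Tex12 and Syce2 also held GCGGGAA. In the strand exchange list 6 of 11 genes with a promoter held GCGGGAA (54.5%), in the crossover list 2 of 10, and over the same lists together 17 of 50 (34.0%), against 10.2% of the tested genes. The A-MYB forms were found in 1 of 11 axis genes (9.09%) and 5.31% of tested genes, and CCTCAG in 7 of 11 (63.6%) and 31.8%. These matches describe letters, not binding.

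Most windows of the recombination, axis, cohesin and telomere lists also overlapped open chromatin of the spermatogonia. An ATAC-seq peak of the authors' lists overlapped the promoter by at least 1 bp in all 5 libraries for 10 of the 11 axis genes, and in 4 for Hormad1. Over the recombination, axis, cohesin and telomere lists together, all 5 libraries overlapped 39 of 50 genes with a promoter (78.0%), against 60.4% of the tested genes. In the piRNA list this was so for 4 of 10 (40.0%), and in the sex-body list for 8 of 13 (61.5%). Dmc1, Prdm9 and Rad51ap2 were overlapped in all 5. Msh4, a crossover gene, and Rad21l, a meiotic cohesin gene, were overlapped in none. H3K27me3 regions were found in any library at 2 of the 50 promoters (4.00%), against 6.07% of tested genes, and in no library of either genotype at Dmc1, Prdm9, Rad51ap2, Sycp1 or Sycp3. The 2 were 4930447C04Rik and Mei1, a gene of break formation. Of the spermatogonial marker promoters, 6 of 7 carried the mark in at least 1 library (85.7%). These lists come from cKIT+ spermatogonia, not from the early prophase cells, and peaks were called per library with numbers that ranged from 14635 to 40497 for ATAC-seq.

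Outside the rule, 2912 of 16703 genes were at least 2-fold higher in early prophase cells than in other passing cells of both libraries, a background of 17.4%. In each list the share was above that background, by the following counts. They were 8 of 11 axis and synaptonemal complex genes, 10 of 14 crossover genes, 8 of 14 strand exchange genes, 5 of 9 break formation genes, 3 of 6 cohesin genes and 2 of 7 telomere attachment genes. In the sex-body and checkpoint list 12 of 15 genes were, in the piRNA list 6 of 12 and in the S-phase list 6 of 12. The meiotic entry list had 5 of 8, and the list of H3K27 and KMT2 genes, which is not meiotic, 8 of 15. The 25 genes highest against other cells in the lower of both libraries included Mnd1, the piRNA helicase gene Mov10l1, the RNA-binding regulator Dazl and 4930447C04Rik, which encodes the synaptonemal complex protein SIX6OS1. Prss50, a testis protease gene, led them at 150 and 165 CPM, with log2 ratios over other cells of 4.18 (control) and 4.53 (cKO). Elavl3, an RNA-binding protein gene, followed with 3.93 and 4.51, at 51.05 CPM and 72.0 CPM. Top2b, a topoisomerase gene, had 3.71 and 4.18. The others outside the X chromosome were Ccdc152, H2-D1, Dicer1, Btg3, Acer3, Rxylt1, Iqcb1, Uba6, Parp12, Atp6v0b, Hist1h4h, Ncl and P4hb. Dazl had 3.43 and 3.72 at 909 CPM in control and 1167 in cKO, and had a UMI in 87.5% of control and 91.0% of cKO cells thinned to 3000 UMIs.

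**Figure D2:**
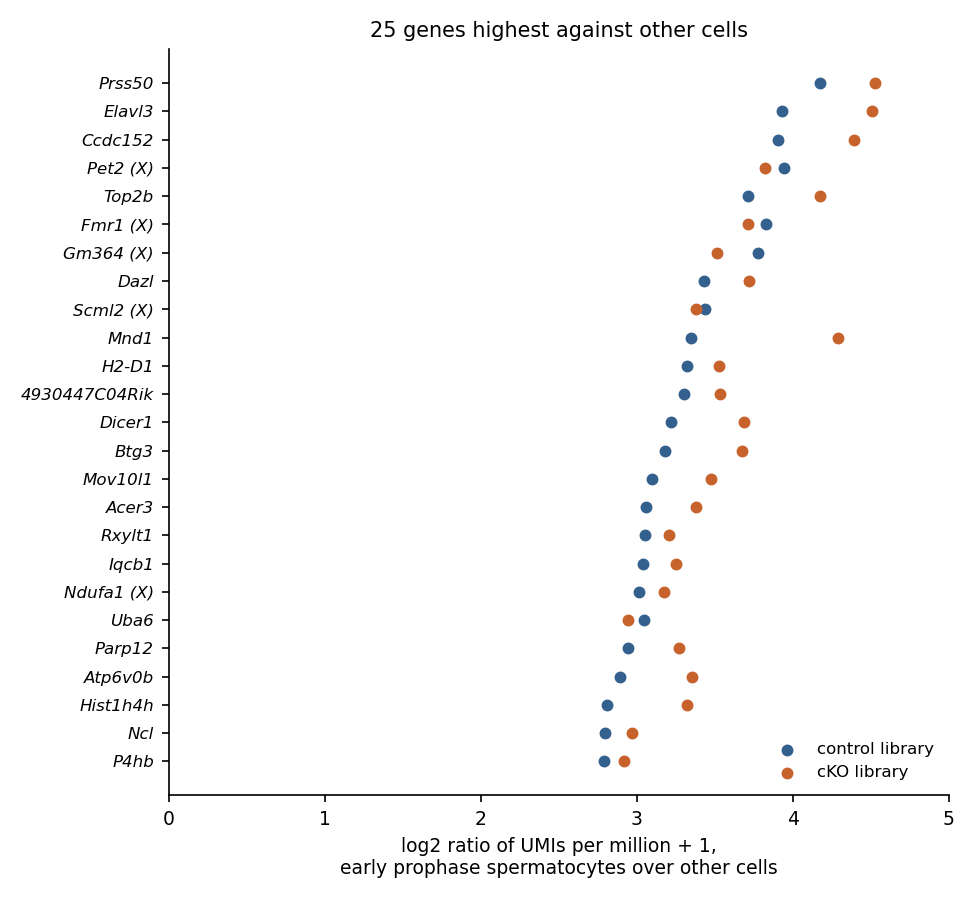
Log2 ratio of CPM plus 1 in early prophase cells over all other passing cells (horizontal axis) for the 25 genes with the highest ratio outside the selection rule, 1 point for each library; (X) marks X-linked genes. All 25 genes lie above 2.7 in both libraries, led by Prss50 at 4.18 in control and 4.53 in cKO.

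Of these 25 genes, 5 were X-linked, namely Pet2, Fmr1, Gm364, Scml2 and Ndufa1, while 24 of the 3700 genes that reached 50 CPM in both libraries were. Fmr1, the fragile X gene, was at 161 CPM in control and 95.4 in cKO, and Scml2, a Polycomb protein gene of the germ line, at 127 and 85.0 CPM. Gm364 was at 106 and 72.7 CPM. Ndufa1, a subunit of respiratory complex I, was instead at 256 and 317 CPM. The X-linked genes of the group therefore did not all stand on the same side between libraries.

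The X-linked share of UMIs, summed over 997 genes with Kdm6a left out, split the early prophase cells. In control it ran from 0.0366% to 3.00% with a median of 1.36%, and in cKO from 0.0477% to 2.93% with a median of 0.636%. In control, 119 cells lay under 0.5%, 75 from 0.5% to 1%, 64 from 1% to 1.5% and 205 at 1.5% and over. In cKO the same bands held 73, 32, 15 and 46 cells. The outer bands thus held more cells than the middle ones in both libraries. The top band reached 3.00% in control and 2.93% in cKO and was wider than the others, so its count is not like for like. Cells positive for Stra8, which met the 3-gene rule with at least 2 UMIs of Stra8, had medians of 1.86% and 1.87%. Later spermatocytes had 0.999% and 0.879%, and spermatogonia 1.64% and 1.56%.

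A share of at least 1% was found in 269 of the 463 control cells, 58.1% (53.5% to 62.6%), and in 61 of the 166 cKO cells, 36.7% (29.4% to 44.6%). This limit was chosen after the shares were seen, and 21 control and 5 cKO cells lay between 0.9% and 1.1%. After thinning every cell to 3000 UMIs, 58.8% and 38.0% reached it. Where the whole rule was applied to thinned cells, 237 control and 67 cKO cells remained, and 80.6% and 58.2% of them reached it. The cKO library thus had the lower percentage under each of these treatments, with 1 library a genotype.

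**Figure D3:**
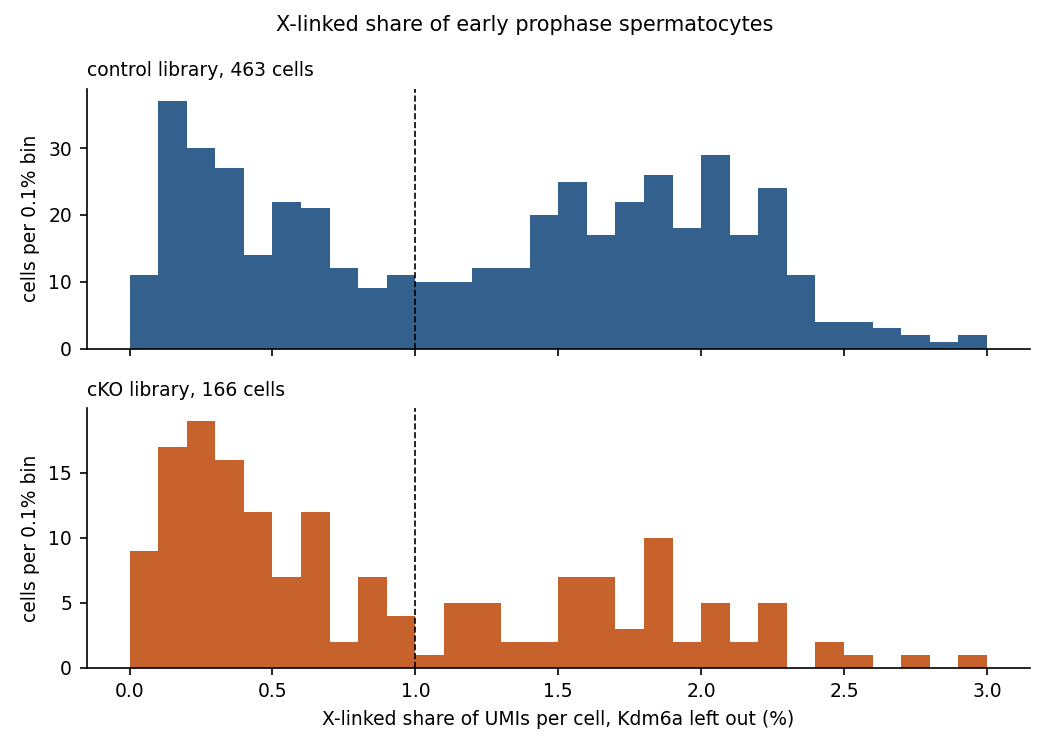
Number of early prophase cells (vertical axis) by the X-linked percentage of their UMIs in bins of 0.1% (horizontal axis), with 463 control cells above and 166 cKO cells below and a dashed line at 1%. In control 58.1% of the cells lie at or right of the line and in cKO 36.7%.

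Depth moved with the X-linked share. Cells under 0.5% had a median of 11910 UMIs in control and 8604 in cKO. Cells of 1.5% and over had 4026 in control and 3786 in cKO. Elongating spermatid genes had medians of 65.3 per 10000 UMIs under 0.5% and 156 at 1.5% and over in control, and of 52.5 and 109 in cKO. Axis genes had 104 and 93.5 per 10000 in those bands of control and 108 and 97.4 in those of cKO, with lower medians of 79.8 and 61.0 from 1% to 1.5%. The part of depth in the X-linked split was not tested beyond the thinned values above.

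As a share of all passing cells, early prophase cells were 4.14% (3.78% to 4.53%) of the control and 1.97% (1.68% to 2.29%) of the cKO library. The split by X-linked share placed most of that gap on one side. Cells of 1% and over were 2.41% (2.13% to 2.71%) of passing cells in control and 0.722% (0.553% to 0.927%) in cKO. Cells under 1% were 1.74% (1.501% to 1.995%) and 1.24% (1.02% to 1.503%). Cells positive for Stra8 were 0.769% and 0.261%. Spermatogonia, at 2.21% and 2.46%, and later spermatocytes, at 48.2% and 48.1%, had nearly the same share in both libraries. The later class also took in cells rich in spermatid transcripts, as given above, so its share is not that of spermatocytes alone. With a library for each genotype, the spread between animals or dissociations is unknown, so these gaps cannot be told apart from it.

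The gap in early prophase cells changed in size but not in side over the settings tried. Control against cKO was 3.27% against 2.18% with a limit of 2000 UMIs. It was 10.5% against 7.52% when 2 genes were enough, and 1.49% against 0.616% when 4 were needed. It was 2.12% against 0.793% when cells were thinned before the rule was applied. Control lay above cKO in each of the 8 settings.

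Some genes outside the X chromosome also differed between the bands, and 5 of them are given here that were chosen after their values were seen. Hspa2, a chaperone gene of pachytene spermatocytes, was at 379 CPM in control cells of 1.5% and over and at 1758 CPM in those under 0.5%, and in cKO at 422 and 1619 CPM. H2afx, the histone gene behind the phosphorylated mark of the sex body, was at 99.8 and 331 CPM in control and at 81.4 and 428 CPM in cKO. Piwil1, the piRNA-binding gene of pachytene, was at 56.1 and 474 CPM in control and at 33.3 and 435 CPM in cKO. Tex15 ran the other way, from 1035 CPM to 98.4 in control and from 666 CPM to 95.5 in cKO, and so did Prdm9, from 131 CPM to 5.98 and from 96.2 CPM to 3.54. Prdm9 and Tex15 were among the genes of the rule and Hspa2 and H2afx were not. Other genes did not keep 1 order, such as Eed, a Polycomb gene, at 62.4 and 51.1 CPM in the outer bands of control and at 37.0 and 47.1 CPM in those of cKO.

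Sycp1 was at 2522 CPM and 2514 CPM in the outer bands of control and 2623 CPM and 3167 CPM in those of cKO. From 1% to 1.5% it was at 1514 and 1526 CPM, and in later spermatocytes at 324 and 296 CPM. Fmr1, as an X-linked gene, followed the share that sets the bands, from 483 CPM to 10.3 in control and from 425 CPM to 9.43 in cKO. Uty, the Y-linked relative of Kdm6a, had 23 UMIs in control, 19 of them in cells of 1% and over, and all 9 of its cKO UMIs lay in such cells.

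**Figure D4:**
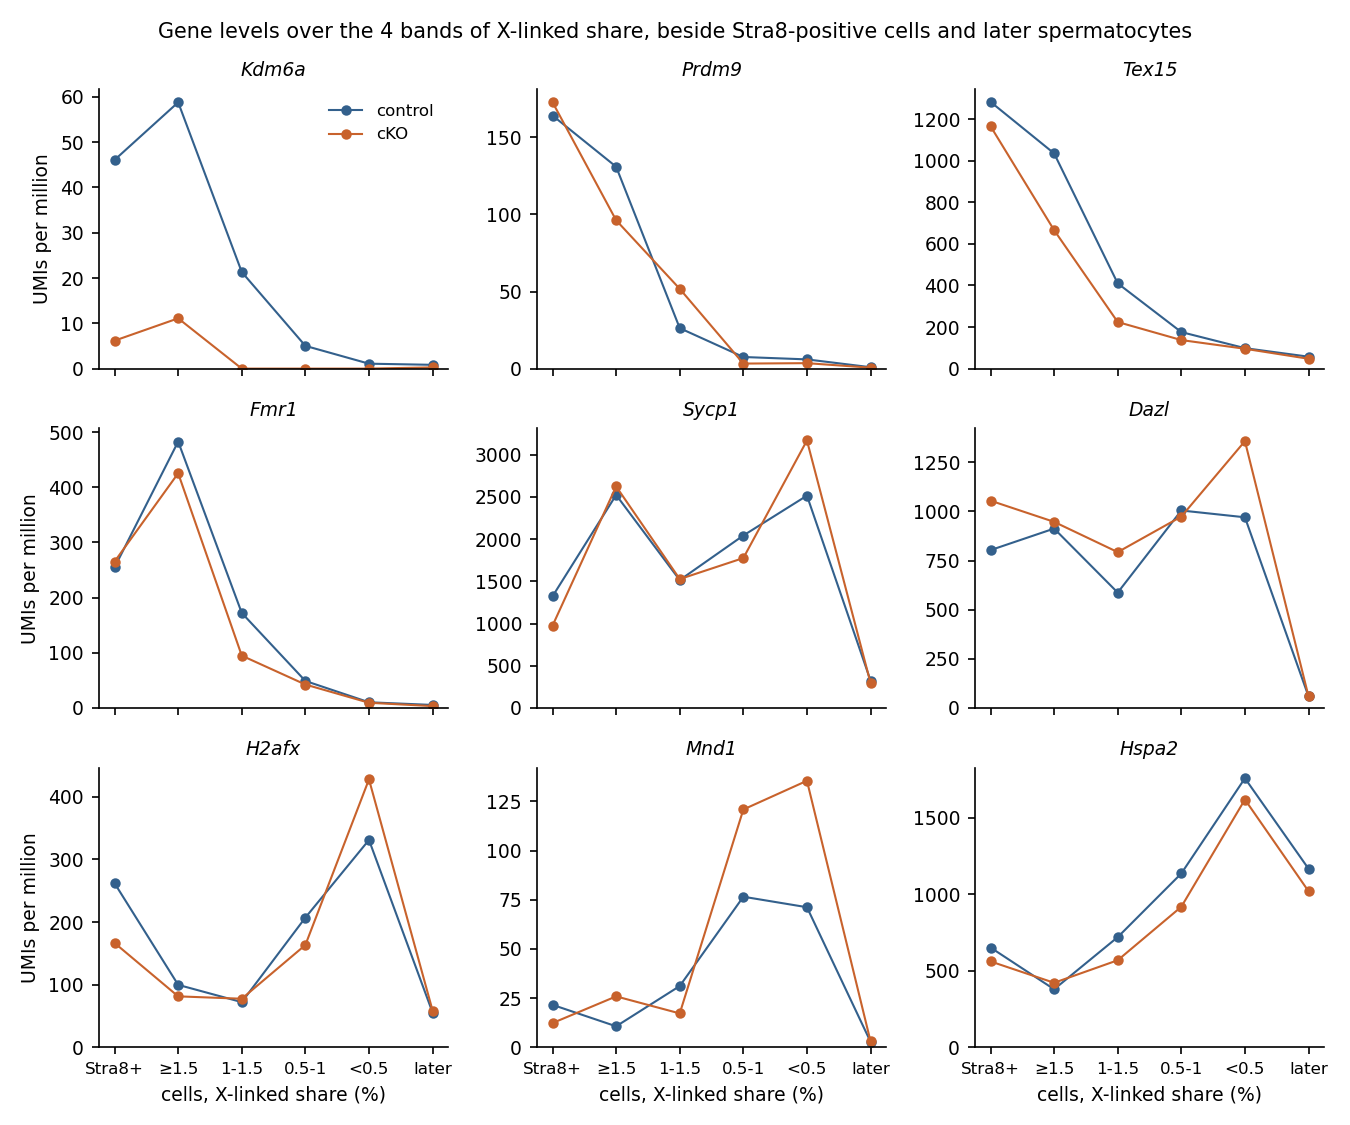
CPM (vertical axes, each from 0) of 9 genes in Stra8-positive cells, the 4 bands of X-linked share of the early prophase cells and later spermatocytes (horizontal axes), 1 point for each library and group of cells. Kdm6a, Prdm9, Tex15 and Fmr1 are high at 1.5% and over and low under 0.5%, while Hspa2, H2afx and Mnd1 are high under 0.5%. Prdm9 and Tex15 are genes of the rule, which asks more of them per UMI in shallow cells, so their order is no finding. Kdm6a lies lower in cKO at 1.5% and over (11.1 against 58.8) and Mnd1 higher in cKO under 0.5% (135.5 against 71.2).

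Kdm6a itself had 85 UMIs in 68 of the 463 control cells and 3 UMIs in 3 of the 166 cKO cells, or 19.5 CPM and 1.95 CPM. The log2 ratio of counts was -3.32 (-5.63 to -1.73). Of the control UMIs, 79 lay in cells with an X-linked share of 1% and over, at 45.6 CPM, where cKO had all 3 of its UMIs, at 7.77 CPM. The log2 ratio there was -2.55 (-4.86 to -0.95), so the gap was also seen among cells of like X-linked share. Under 1%, control had 6 UMIs (2.28 CPM) and cKO 0, which allows up to 2.60 CPM, and no difference was detectable at this depth. By band, control Kdm6a went from 58.8 CPM at 1.5% and over through 21.3 CPM and 5.02 CPM to 1.09 CPM under 0.5%.

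In the neighbouring gates Kdm6a was at 46.1 CPM in control and 6.17 in cKO among cells positive for Stra8, and at 11.8 and 5.74 CPM among spermatogonia. The log2 ratio was -2.90 (-8.25 to -0.32) in the first and -1.04 (-2.24 to 0.04) in the second. Later spermatocytes had 0.837 CPM and 0.275 CPM. The low-UMI barcodes held Kdm6a at 10.8 CPM in control and 14.4 in cKO, above the cKO early prophase cells. Reads from the 3′ end need not fall in the exons that Cre removes, so they check the labels only in part. Kdm6b, the other H3K27 demethylase gene, was at 15.6 CPM (68 UMIs) and 14.9 CPM (23 UMIs), and Uty at 5.27 CPM and 5.84 CPM.

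Between the libraries, 9420 genes had at least 50 UMIs over the early prophase cells of both. Of these, 212 were at least 2-fold lower in cKO (2.25%) and 9 at least 2-fold higher (0.0955%), on the scale of log2(CPM + 1), with a median over all tested genes of -0.06. Control held more of the UMIs, so genes could pass the minimum through control alone, as Dcdc2c did with 50 UMIs and 0, and this favoured genes lower in cKO. With the same minimum on the mean CPM of both libraries, an alternative added after the data were seen, 168 of 9333 were lower and 15 higher. Without the 10% of cells with most UMIs the counts were 220 and 14 of 8183. By the mean over cells they were 320 and 33, and with the low-UMI profile subtracted, unequally as given above, 510 and 280. Markers of some other cells stood lower in cKO. The 3 tested Sertoli genes had a median of -0.81 with 1 past 2-fold, and the 6 elongating spermatid genes one of -0.53 with none past it. The 6 round spermatid genes had a median of -0.03, the later spermatocyte genes -0.08, and the 1 tested gene of spermatogonia stood at 0.28. Both tested Leydig genes were past 2-fold lower, but mostly through 1 control cell each, which held 100 of the 106 control UMIs of Cyp17a1 and 51 of the 60 of Insl3. Without possible mixtures, meaning the deepest cells and those with somatic markers, Insl3 stood at -0.46. Among cells under 1% both stood higher in cKO, with 6 UMIs and 8 of Insl3 and 2 and 3 of Cyp17a1. Of the 212 genes, 8 had at least 25% of their control UMIs in 1 cell (3.77%), against 13 of all tested genes (0.138%). The part of these in the count was not tested. Of the 212, 18 were X-linked (8.49%), against 221 of all tested genes (2.35%), and 118 (55.7%) were lower in control early prophase cells than in other control cells, against 37.9% of all tested genes. Their median was 106 UMIs over both libraries, against 241 for all tested genes. With at least 200 UMIs required, 42 of 5310 genes were lower and 1 was higher.

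The X-linked genes differed between libraries in the whole but less within bands. Over all early prophase cells the 221 tested X-linked genes had a median log2 ratio of -0.36, and the 8993 genes placed on other chromosomes -0.05. Among cells with a share of 1% and over, 166 X-linked genes had a median of -0.06 and 6309 others -0.01. Among cells under 1%, 64 X-linked genes had 0.10 and 7595 others -0.05. The share that set these groups is made of the same genes, so the medians within them are a description.

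Within these groups, 173 of 6556 genes were at least 2-fold lower (2.64%) and 37 higher (0.564%) at 1% and over, and 115 of 7757 were lower (1.48%) and 10 higher (0.129%) under 1%. Of 6104 genes tested in both groups, 9 were at least 2-fold lower in each. They included Gm8251, with 477 UMIs in control and 24 in cKO at 1% and over (log2 ratio -2.13) and 251 and 51 under 1% (-1.09). Map1b, a microtubule protein gene, had 51 UMIs and 4 (-1.42), then 60 and 10 (-1.30). Clasrp, a splicing factor gene, had 129 UMIs and 12 (-1.235), then 243 and 52 (-1.02). Tomm34, a mitochondrial import gene, had 66 and 7 (-1.03), then 114 and 24 (-1.02). All UMIs of these groups were 1732420 in control and 386303 in cKO at 1% and over, and 2636199 and 1154521 under 1%. The other 5 were Poteg, Gm136, St6galnac2, Rbsn and Dnah17. Clasrp was under the limit in 4 of 11 alternatives, at -0.98 with a minimum of 5000 UMIs, -0.997 with no Stra8 UMI, -0.97 without the 10% of cells with most UMIs and -0.56 with the low-UMI profile subtracted. Map1b was under it in 2, at -0.62 by the mean over cells and with no CPM left after the subtraction, and Gm8251 stood at -0.90 without possible mixtures. Over all early prophase cells Tomm34 (-0.999) and Dnah17 (-0.98) were just short of 2-fold. These 9 genes were chosen after their values were seen. Their levels in other cells and in low-UMI barcodes are not given here. Whether the gaps are particular to early prophase cells was not tested.

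The genes lowest in cKO had few UMIs there. Dcdc2c had 50 UMIs in 31 control cells and 0 in cKO, where 3 counts over the cKO early prophase cells would be 1.95 CPM, so its 11.5 CPM in control made it at least 5.88-fold lower. Without possible mixtures it had 21 UMIs and 0, at least 2.53-fold lower, and among cells with an X-linked share under 1% it had 9 and 0, at least 1.31-fold lower. Pola2, a subunit of the polymerase that primes DNA replication, had 75 UMIs and 4 (log2 ratio -2.34), and stood at -1.15 among cells of 1% and over and at -1.69 with the same mix of X-linked bands. Cnbd1 had 49 UMIs and 2 (-2.41), 4933402N03Rik 62 and 4 (-2.08) and Rundc3b 69 and 5 (-1.98). Tmco5b also had 69 and 5, with 21 of the 69 in 1 cell. Gm45194 had 47 UMIs and 3, with 46 of the control UMIs in cells of 1% and over. Cyp17a1, a Leydig cell gene, had 106 UMIs and 4, but 100 of the 106 came from 1 control cell, and Fam71b had 51 of its 245 control UMIs in 1 cell. Without possible mixtures Fam71b stood at -0.95, Tmco5b at -0.85 and 4933402N03Rik at -1.31. Among cells under 1%, Fam71b stood at -0.67, Tmco5b at -0.97, Rundc3b at -0.56 and 4933402N03Rik at -1.37. Cnbd1 stood at -1.64 with at least 4 of the 5 genes.

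The 9 genes past 2-fold higher in cKO were led by 4930568E12Rik, with 63 control and 70 cKO UMIs and a log2 ratio of 1.59 (interval of the count ratio 1.14 to 2.17). Speer4e had 25 UMIs and 29 (1.56), with 11 of the 29 in 1 cell. Map4k1, a kinase gene, had 87 and 75 (1.248), with 19 of the 75 in 1 cell. Map4k1 was also at 38.4 CPM and 111 CPM in later spermatocytes. Zbed5 had 48 UMIs and 40 (1.17), Slc35d1 45 and 36 (1.11), Tcf7 32 and 25 (1.05) and X-linked Fundc2 28 and 22 (1.04). E130311K13Rik had 30 UMIs and 23 (1.02). Zfp446, next in order, was under the limit with 33 UMIs and 24 (0.95).

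Of the genes called higher, 8 of 9 were under the limit in at least 1 alternative. Speer4e was past 2-fold in each of 11 alternatives, and Slc35d1 in all but the cells under 1% (0.85). 4930568E12Rik was past it in 10, but among cells of 1% and over it had 11 UMIs and 2 (-0.25). Map4k1 stood at 0.51 with at least 4 of the 5 genes and at 0.98 among cells under 1%. Fundc2 stood at -0.04 with at least 4 of the 5 genes and at 0.72 with a minimum of 5000 UMIs. Zbed5 was under the limit in 4 alternatives, among them 0.77 without the 10% of cells with most UMIs and 0.32 among cells of 1% and over. Tcf7 was under it in 4, with 0.38 at the same mix of X-linked bands and with 8 UMIs and 0 among cells of 1% and over. E130311K13Rik was under it in 5, with 0.39 among cells of 1% and over as the lowest.

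The remaining gene was Mnd1, of the HOP2-MND1 pair that assists DMC1. It had 223 UMIs in 133 control cells and 161 UMIs in 81 cKO cells, or 51.05 CPM and 104.5 CPM, with a log2 ratio of 1.02 (interval of the count ratio 0.73 to 1.33). In cells thinned to 3000 UMIs, 13.6% (10.6% to 17.1%) of control and 30.1% (23.3% to 37.7%) of cKO cells had a UMI of it. Among cells under 1% it was at 72.8 and 132 CPM (log2 0.85), and among those of 1% and over at 17.9 and 23.3 CPM (0.36). With both libraries weighted to the same mix of X-linked bands the log2 ratio was 0.78, and without the 10% of cells with most UMIs 0.97, both under the 2-fold limit. It was under it in 6 of 11 alternatives, also with 0.88 at a minimum of 5000 UMIs and 0.82 with the low-UMI profile subtracted. Its partner Psmc3ip (HOP2) was at 323 CPM and 378 CPM (0.22).

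Among the genes of double-strand break formation, 1 of 7 tested was past 2-fold, on the lower side, and the median was -0.27. That gene was Ccdc36 (Iho1), needed for the break machinery on axes, with 92 UMIs and 11, at 21.1 CPM and 7.14 CPM. Zcwpw1, the reader of PRDM9 marks, was at 186 and 111 CPM (-0.74), and Hells, the PRDM9 partner, at 234 and 175 CPM (-0.42). Spo11, which cuts the DNA, was at 68.9 CPM and 70.7 CPM (0.04). Ankrd31 stood at -0.27 and Zcwpw2 at -0.16. Among cells of 1% and over Ccdc36 was at 39.8 and 23.3 CPM (-0.75), and under 1% it had 23 UMIs and 2 (-1.83). With the same mix of X-linked bands it stood at -0.97, under the 2-fold limit.

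In the strand exchange list, Mnd1 was the 1 gene of 14 past 2-fold, and the list's median was -0.16. Spata22, the partner of MEIOB, stood at -0.98 and Brca2, which loads DMC1 onto DNA, at -0.87, with 208 CPM and 113 CPM. Swi5 and Hsf2bp stood at 0.375 and 0.45, and Sfr1, the partner of SWI5, at -0.18. In the crossover list 1 of 14 genes was past 2-fold, Shoc1, with 94 UMIs and 14 (-1.16), and the median was -0.14. Among cells of 1% and over Shoc1 was at 34.1 CPM and 12.9 CPM (-1.33). It was under the 2-fold limit among cells under 1% (-0.70), with a minimum of 5000 UMIs (-0.65) and with at least 4 of the 5 genes (-0.90). Hfm1, Ccnb1ip1, Mlh3, Prr19 and Cntd1 stood at -0.34, -0.27, 0.14, 0.24 and 0.47. X-linked Tex11 was at 43.0 and 24.7 CPM (-0.78), and at 97.0 and 80.3 CPM among cells of 1% and over.

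None of the 11 synaptonemal complex and axis genes was past 2-fold, and their ratios ran from -0.18 to 0.35 with a median of 0.10. That median changed sign in 4 of 13 alternatives, and was -0.03 among cells of 1% and over, -0.02 by the mean over cells, -0.11 with the low-UMI profile subtracted and -0.03 with the same mix of X-linked bands. Sycp3, of the lateral element, was at 1801 CPM and 2294 CPM (0.35), Sycp1 at 2290 CPM and 2671 CPM (0.22), and Hormad1, an axis protein gene, at 739 CPM and 794 CPM (0.10). Sycp2 was at 822 CPM and 794 CPM (-0.05), and the central element genes Syce1 and Syce3 stood at 0.11 and 0.24. Of 6 cohesin genes, Rad21l was past 2-fold, at 17.6 CPM and 7.14 CPM (-1.19) with 77 UMIs and 11, and the list's median was -0.22. Among cells of 1% and over Rad21l was at 37.5 and 23.3 CPM (-0.66), and with the same mix of X-linked bands it stood at -0.80. Smc1b, Stag3, Smc3 and Rad21 stood at -0.20, -0.15, -0.36 and -0.25, and Rec8, the other meiotic kleisin, at 0.20.

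**Figure D5:**
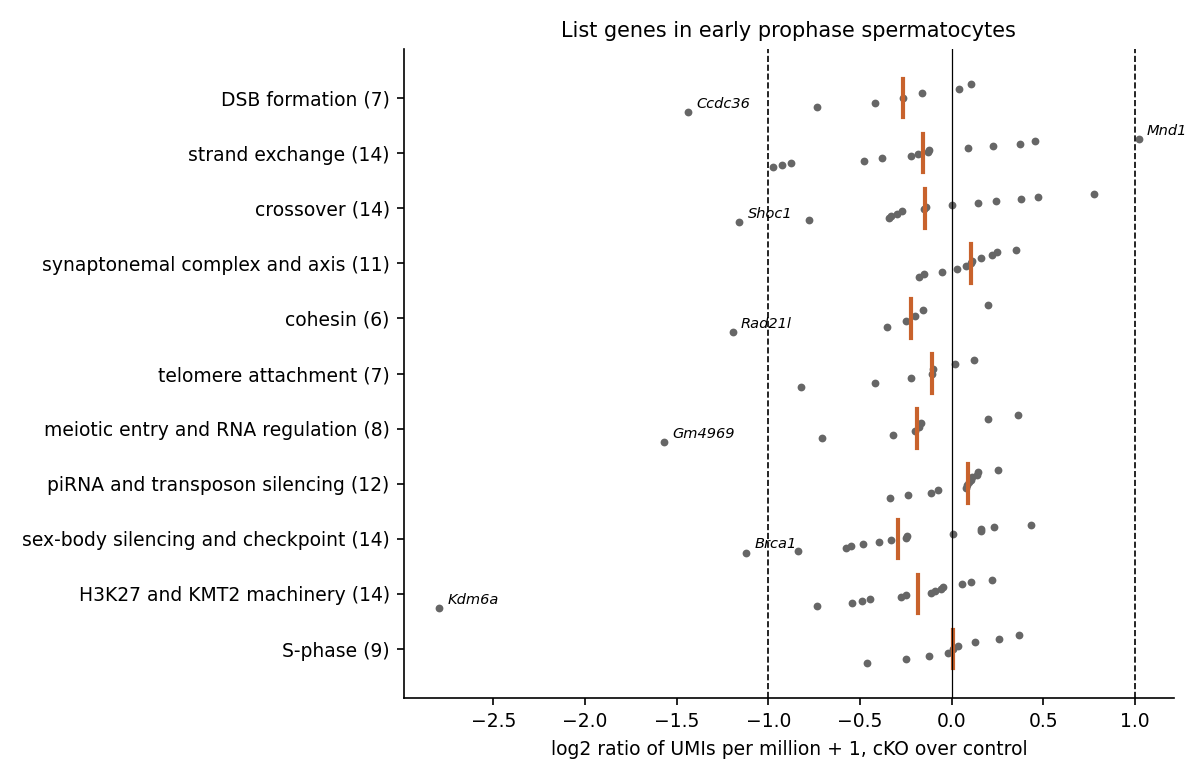
Log2 ratio of CPM plus 1, cKO over control, in early prophase cells (horizontal axis), 1 grey point for each tested gene of 11 lists (rows, with the number tested) and an orange bar at each list's median, with dashed lines at 2-fold. Kdm6a lies furthest left at -2.80, Mnd1 is the point past 2-fold on the right at 1.02, and the list medians lie between -0.29 and 0.10.

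None of 7 telomere attachment genes was past 2-fold, with a median of -0.11, and Terb1, which tethers telomeres to the envelope, was lowest at -0.82. Sun1 stood at -0.42, Spdya at -0.11, Cdk2 at -0.10, Terb2 at 0.02 and Ccdc155 (Kash5) at 0.12. In the list of meiotic entry and RNA regulation, 1 of 8 was past 2-fold, with a median of -0.19. It was Gm4969 (Meiosin), the partner of STRA8, with 76 UMIs and 8, at 17.4 CPM and 5.19 CPM (-1.57). It was at 112 CPM and 55.5 CPM in cells positive for Stra8, and at 41.6 CPM and 18.1 CPM among early prophase cells of 1% and over (-1.15). It was under the 2-fold limit with a minimum of 5000 UMIs (-0.97) and, with 4 UMIs and 1, among cells under 1% (-0.43). Meioc, which acts on RNA to sustain the meiotic programme, stood at -0.32. Ccnb3, Sohlh2, Meikin and Ythdc2 stood at -0.71, -0.20, -0.18 and -0.17, and Dazl at 0.36.

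The 12 piRNA genes had a median of 0.09, with none past 2-fold, and it too changed sign in 4 of 13 alternatives, to -0.10 at the lowest with the low-UMI profile subtracted. Mov10l1 was at 391 CPM and 414 CPM, Mael at 455 CPM and 487 CPM and Piwil2 at 230 CPM and 243 CPM. Mybl1, which encodes A-MYB, stood at -0.24 and Gtsf1 at -0.08. The 9 S-phase genes had a median of 0.01 that changed sign in 6 of 13, with none past 2-fold, Mcm5 lowest at -0.46 and Mcm7 highest at 0.37, and with Pcna at 0.03, Mcm3 at 0.01, Ccne2 at -0.02 and Mcm6 at -0.25. Among sex-body and checkpoint genes, 1 of 14 was past 2-fold and the median was -0.29. It was Brca1, which brings ATR to unpaired axes, with 141 UMIs and 22, at 32.3 CPM and 14.3 CPM (-1.12). Among cells of 1% and over Brca1 was at 50.2 and 31.1 CPM (-0.68), among those under 1% at -1.15, and with the same mix of X-linked bands at -0.84. Atr, the kinase, was at 499 CPM and 357 CPM (-0.48), Setdb1 at 102 CPM and 56.5 CPM (-0.84) and H2afx at 213 CPM and 288 CPM (0.435). Mdc1, which spreads the H2AX mark, stood at -0.24 and Topbp1 at 0.01.

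Of 14 tested genes for H3K27 methylation and the KMT2 complexes in which KDM6A acts, Kdm6a was the 1 past 2-fold, and the median was -0.18. Ezh2, the methyltransferase, was at 188 CPM and 196 CPM (0.06), Suz12 at 153 CPM and 144 CPM (-0.09) and Jarid2 at 110 CPM and 128 CPM (0.22). Rbbp4, Mtf2 and Ncoa6 stood at -0.05, 0.11 and -0.27, and Kmt2c and Kmt2d at -0.73 and -0.54. The 11 lists held 114 distinct tested genes, of which 6 were past 2-fold below (5.26%), Kdm6a among them, and 1 was past 2-fold above (0.877%). The backgrounds over all tested genes were 2.25% and 0.0955%. Without Kdm6a the lower genes were 5 of 113 (4.42%).

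The later spermatocyte genes Ccna1, Pou5f2, Nme8, Piwil1 and Ybx2 summed to a median of 7.80 per 10000 UMIs in control early prophase cells and 6.93 in cKO. Barcodes with 10 to 100 UMIs held them at 7.34 and 6.75. Spermatogonia, which precede meiosis, had medians of 4.46 and 4.33, and later spermatocytes 14.6 and 13.6. In cells thinned to 3000 UMIs, at least 2 of the 5 were found in 52.5% of control and 45.2% of cKO early prophase cells. How much of this is RNA of other cells was not tested, since the low-UMI barcodes may not show it. Pou5f2 was the marker past 2-fold, at 47.6 CPM (208 UMIs) and 18.2 CPM (28 UMIs), and 185 of its control UMIs lay in cells under 0.5%. Without the 10% of cells with most UMIs it was at 11.3 and 10.9 CPM (-0.05). It stood at 0.69 among cells of 1% and over, at -0.73 by the mean over cells and at -0.97 with the same mix of X-linked bands, so the call was lost in 4 of 11 alternatives.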

How the data were processed

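Per the file headers, the single-cell matrices are UMI counts written by Cell Ranger 4, which the authors deposited for all barcodes. From them, cells with at least 3000 UMIs and at most 20% mitochondrial UMIs were kept and the selection rule was applied in each library on its own. The libraries held 229882646 UMIs in control and 172368722 in cKO. Counts were summed over the chosen cells, divided by their total and compared as log2(CPM + 1), where called means past 2-fold, for genes with at least 50 UMIs over both libraries. With 1 library per genotype no test was run. Intervals are exact, 95%, Poisson-based for counts and Clopper-Pearson for shares, and cover counting error only, since UMIs of 1 cell share its capture. No doublet caller was run. Possible mixtures, meaning the 10% deepest cells and cells with 3 or more UMIs of somatic markers, were left out as an alternative. A low-UMI profile was read from barcodes with 10 to 100 UMIs and subtracted as an alternative, though it may not show the free RNA of these cells. Cells were thinned to 3000 UMIs with random seed 1. Of 32285 features, 26697 matched a chromosome by the RefSeq tables, and 997 X-linked genes were counted.

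For ATAC-seq the deposited values are fold enrichment ratios per peak in lists called for each library. For CUT&Tag the deposited values are the highest signal per region, in lists called for each library. Per the submitters' processing notes, MACS2, SEACR and Bowtie2 were used on mm10, and some CUT&Tag libraries were downsampled, per the labels of their lists. Only positions were used here, with an overlap of at least 1 bp with a promoter window of 250 bases before to 50 after the start. Bulk RNA-seq was not used here.

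The members and gene lists were chosen with earlier results of these data known. The text names from each list up to 6 genes with most UMIs and any past 2-fold, the 10 lowest and 10 highest genes between libraries, and the 25 genes highest over other cells at 50 CPM or more in both libraries. Spata22, Msh4, Mei1, Kmt2c, Kmt2d, Hspa2 and Pou5f2 were named after their values were seen. The X-linked share, its bands and the promoter overlaps with chromatin regions were added after the data were seen. The ratio step was tested on simulated data. Python 3.11.15, numpy 2.4.6, scipy 1.17.1, pandas 2.3.3 and matplotlib 3.10.9 were used.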

Additional observations from a re-analysis of the deposited data

How the results depend on the processing

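No paired analysis was possible because each genotype had 1 single-cell library. The Kdm6a ratio stayed within its counting interval in 8 of 8 alternatives, and it had no value where the cKO cells held 0 UMIs. Of 143 list medians, 139 stayed within a range set by the ratios of the list's own genes. For break formation that range ran from its lowest to its highest gene (-1.44 to 0.10), so the median could hardly leave it. Its median of -0.73 with at least 4 of the 5 genes thus counted as the same. In 17 of the 143 the sign changed, namely 6 of 13 for S-phase, 4 of 13 each for the axis and piRNA lists and 1 of 13 each for cohesin, break formation (0.01 among cells with an X-linked share under 1%) and telomere attachment (0.01 by the mean over cells). The other 5 lists kept their sign in all 13. The cohesin median was 0.21 among cells with an X-linked share under 1%, the piRNA median 0.21 with at least 4 of the 5 genes, and the S-phase median -0.36 with at least 4 and -0.32 among cells of 1% and over.

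The share of early prophase cells in control was 3.27% with 2000 UMIs, 3.14% with 5000, 10.5% with 2 genes, 1.49% with 4, 4.91% with no Stra8 limit and 2.12% after thinning. In cKO it was 1.58% with 5000 UMIs, 7.52% with 2 genes, 0.616% with 4 and 0.7935% after thinning. The percentage of cells with an X-linked share of 1% and over in control was 69.5% with 4 genes, 35.9% with 5000 UMIs, 63.3% and 52.9% with a lower and a higher limit, and 80.6% with the rule on thinned cells. In cKO it was 21.6% with 5000 UMIs and 58.2% on thinned cells.

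The number of genes tested differed between alternatives, so counts are given with it. Genes at least 2-fold lower in cKO numbered 115 of 7757 (1.48%) among cells under 1% and 270 of 5850 (4.615%) with 4 genes. Of 9420 tested, they numbered 320 by the mean over cells, 510 with the low-UMI profile subtracted and 77 with 5 CPM added. They numbered 42 of 5310 (0.791%) with at least 200 UMIs and 1114 of 20928 (5.32%) with no minimum. Those higher numbered 37 of 6556 (0.564%) at 1% and over, 1 of 5310 (0.0188%) with at least 200 UMIs and 350 of 20928 (1.67%) with no minimum. Of 9420 tested, 33 were higher by the mean over cells, 280 with the low-UMI profile subtracted and 3 with 5 CPM added. Genes higher numbered 18 of 5850 with 4 genes, 14 of 8183 without the 10% deepest cells and 14 of 8894 without possible mixtures. They numbered 25 of 9420 at the same X-linked mix and 15 of 9333 with the minimum on the mean CPM of both libraries. The cause was not tested.

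The share of cells with at least 2 later genes in control was 47.6% at 1% and over, 59.3% under 1%, 75.2% unthinned, 89.6% for 1 later gene and 13.4% for 3. In cKO it was 29.5%, 54.3%, 66.9%, 88.55% and 6.63% in that order, and 55.9% with 5000 UMIs. Over the recombination, axis, cohesin and telomere lists together, the CCTCAG element stood in 21 of 50 promoters (42%) in the whole window. Within 150 bases before the start it stood in 13 of 50 (26.0%). Among tested genes the shares were 31.8% and 16.8%. In the strand exchange list GCGGGAA went from 6 of 11 genes to 2 of 11, and over the lists together from 17 of 50 to 11 of 50. Among tested genes it went from 10.2% to 5.86%. Depth limits genes with few UMIs, and 1 library per genotype leaves the spread between animals unknown. The X-linked alternatives were chosen after seeing the data.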
